A study of Mus musculus with 8 samples.

Results

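The Nrf2 oxidative stress response was followed here through 10 genes: Nfe2l2, which encodes the transcription factor Nrf2 itself, and Nqo1, Hmox1, Gclc, Gclm, Srxn1, Txnrd1, Osgin1, Slc7a11 and G6pdx, which are among its best known targets. A gene was included when a probe set of the array carried its symbol and no other, and where several did, the brightest on average across all arrays stood for the gene. Of the 10 genes, 9 could be read in this way, among 17097 genes measured in all. G6pdx had no such probe set and has no value here. The members were chosen by name and not by their values, but with earlier results of these data known.

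The study made hepatocyte-like cells from mouse fibroblasts by retroviral transduction of transcription factors. The 3 iHep arrays each came from a different line at passage 10. Line 4a3 carried Hnf4a and Foxa3 and gave colonies within 2 weeks, line 4a3CK carried these and c-Myc and Klf4, and line 4a1CK carried Hnf4a, Foxa1, c-Myc and Klf4. Both lines with c-Myc and Klf4 gave colonies within 5 days. The 3 arrays of primary hepatocytes (PH) came from male C57/B6 mice aged 8 to 10 weeks, whose livers were perfused with collagenase, and the 2 arrays of mouse embryonic fibroblasts (MEF) from C57/B6 embryos at day 13.5. The iHep lines and the PH had been kept in the same hepatocyte medium, with serum, dexamethasone, nicotinamide, insulin, transferrin, selenium and growth factors, so the PH were cultured cells and not whole liver. The MEF medium is not given in the sources used here. Each iHep line was 1 array, so differences between factor sets are part of the spread of the iHep group. The labels do not say that the arrays of a group came from separate animals or cultures, so the p-values reflect array-to-array spread, which may be technical.

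Nrf2 is a basic leucine zipper factor whose amount is set mainly by protein turnover. In unstressed cells Keap1 holds it for a Cul3 ubiquitin ligase, and oxidants or electrophiles that modify Keap1 let it escape degradation, enter the nucleus and bind antioxidant response elements together with a small Maf protein. Its targets make glutathione, reduce thioredoxin, break down heme, reduce quinones and supply NADPH, and in the liver they serve the handling of reactive drug metabolites. The mRNA of Nfe2l2 is therefore a measure of the gene's transcript and not of Nrf2 activity, and Nrf2 protein was not measured.

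Promoter windows are shown for 4 of the 5 members that passed the test between iHep and PH and held a motif in the 250 bases before an annotated transcript start. The fifth, Txnrd1, has 3 windows and is left out for length. Sequences are from RefSeq, assembly GRCm38.p6, and are written 5′ to 3′ on the strand of the gene. RefSeq windows were at hand for 8 of the 10 members, in 10 windows, and the windows of Gclc and Hmox1 are not shown. Capitals mark the core of the antioxidant response element, TGACNNNGC, in Nfe2l2 and Gclm, and the core of an AP-1 type element, TGANTCA, in Srxn1 and Osgin1. Both were searched on both strands, and a larger element can hold both cores. The Gclm match lies on the opposite strand so its capitals spell the reverse complement of the core. The second motif was added after the windows had been read.
Nfe2l2: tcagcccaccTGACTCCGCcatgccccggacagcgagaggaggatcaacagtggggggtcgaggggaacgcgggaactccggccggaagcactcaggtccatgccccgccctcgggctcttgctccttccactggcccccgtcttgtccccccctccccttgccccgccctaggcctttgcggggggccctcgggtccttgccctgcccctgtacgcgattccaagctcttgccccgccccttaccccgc
Gclm: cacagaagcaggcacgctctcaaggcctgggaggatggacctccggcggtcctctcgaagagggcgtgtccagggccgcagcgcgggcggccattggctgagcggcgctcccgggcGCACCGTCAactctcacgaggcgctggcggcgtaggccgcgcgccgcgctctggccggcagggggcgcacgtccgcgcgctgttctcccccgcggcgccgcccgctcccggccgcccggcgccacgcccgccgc
Srxn1: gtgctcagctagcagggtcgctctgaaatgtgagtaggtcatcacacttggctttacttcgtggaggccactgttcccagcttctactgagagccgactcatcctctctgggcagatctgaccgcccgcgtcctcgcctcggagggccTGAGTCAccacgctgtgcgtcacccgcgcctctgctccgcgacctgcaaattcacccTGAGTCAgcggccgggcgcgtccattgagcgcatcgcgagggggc
Osgin1: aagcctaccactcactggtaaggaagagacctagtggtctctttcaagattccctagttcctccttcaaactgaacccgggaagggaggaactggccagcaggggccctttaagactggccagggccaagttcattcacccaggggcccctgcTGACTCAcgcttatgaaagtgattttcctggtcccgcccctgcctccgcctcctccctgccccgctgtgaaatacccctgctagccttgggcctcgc
The Nfe2l2 window is chr2:75704664-75704913 on the minus strand and the Srxn1 window is chr2:152105274-152105523 on the plus strand, each ending at the base before the gene. The Gclm window is chr3:122245307-122245556 and the Osgin1 window chr8:119436897-119437146, both on the plus strand and both belonging to a transcript start that lies inside the annotated span of the gene. The antioxidant core was found in 4 of the 8 members with a window (Nfe2l2, Gclm, Txnrd1 and G6pdx), against 11.5% of 27025 genes with a window. The AP-1 type core was found in Srxn1, where it occurs at 2 places, and in Osgin1, against 7.82% of genes. The Srxn1 match nearer the gene and, on the opposite strand, the Osgin1 match are followed by GC. They thus differ from the antioxidant core only by a G in place of its C, and were not counted as that core. These matches describe letters and not binding, and a window without them may have an element elsewhere.

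All values are log2 signals as deposited, so a difference of 1 is a 2-fold difference, and a difference passed the test when its adjusted p was under 0.05 and its size at least 1 (limma, 3 groups fitted together on 8 arrays, Benjamini-Hochberg over 17097 genes). Array medians over all probe sets were 4.40 to 4.45 in the iHep lines, 4.23, 4.24 and 5.06 in PH 1, PH 2 and PH 3, and 4.24 and 4.23 in the MEF. PH 3 thus stood above the other arrays, and PH 1 exceeded it in only 7.01% of genes. PH 1 and PH 2 were far closer to each other (SD of their differences 0.159) than the MEF pair (0.570). Taken over all genes, the median differences were 0.16 for iHep against MEF, -0.09 for iHep against PH and 0.25 for PH against MEF, and became 0.01, -0.01 and 0.02 after quantile normalization. By accession the arrays fall into 2 submission sets, the first with all iHep lines, PH 3 and MEF 2 and the second with PH 1, PH 2 and MEF 1.

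The cell type labels were set against marker lists. The mean of 10 hepatocyte markers was 8.03 in 4a3, 7.18 in 4a3CK and 4.77 in 4a1CK, against 10.13 to 10.30 in PH and 4.05 to 4.07 in MEF. Albumin (Alb) read 9.30 in 4a3 but only 3.80 in 4a3CK and 4.01 in 4a1CK, at the MEF values of 4.12 and 4.01, whereas the apolipoprotein Apoa1 read 10.39 to 12.82 in all 3 lines. Of the 10 hepatocyte markers, 8 in 4a3, 5 in 4a3CK and 1 in 4a1CK, Apoa1, stood above the median over genes of the array. In each PH array 9 did, and in MEF 1 and MEF 2 the counts were 1 and 0. The mean of 10 fibroblast markers was 3.90 to 4.70 in the lines and 4.42 to 4.50 in PH, against 9.87 and 8.83 in MEF 1 and MEF 2. In 4a1CK 3 of the 10 stood above the median over genes of the array. These were Col3a1 at 7.12, Twist1 at 7.52 and Prrx1 at 7.76, against 3.83, 5.78 and 4.82 in 4a3. Of these, only Twist1 lay within the MEF values (7.40 and 8.31), and the others lay below those of MEF.

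**Figure D1:**
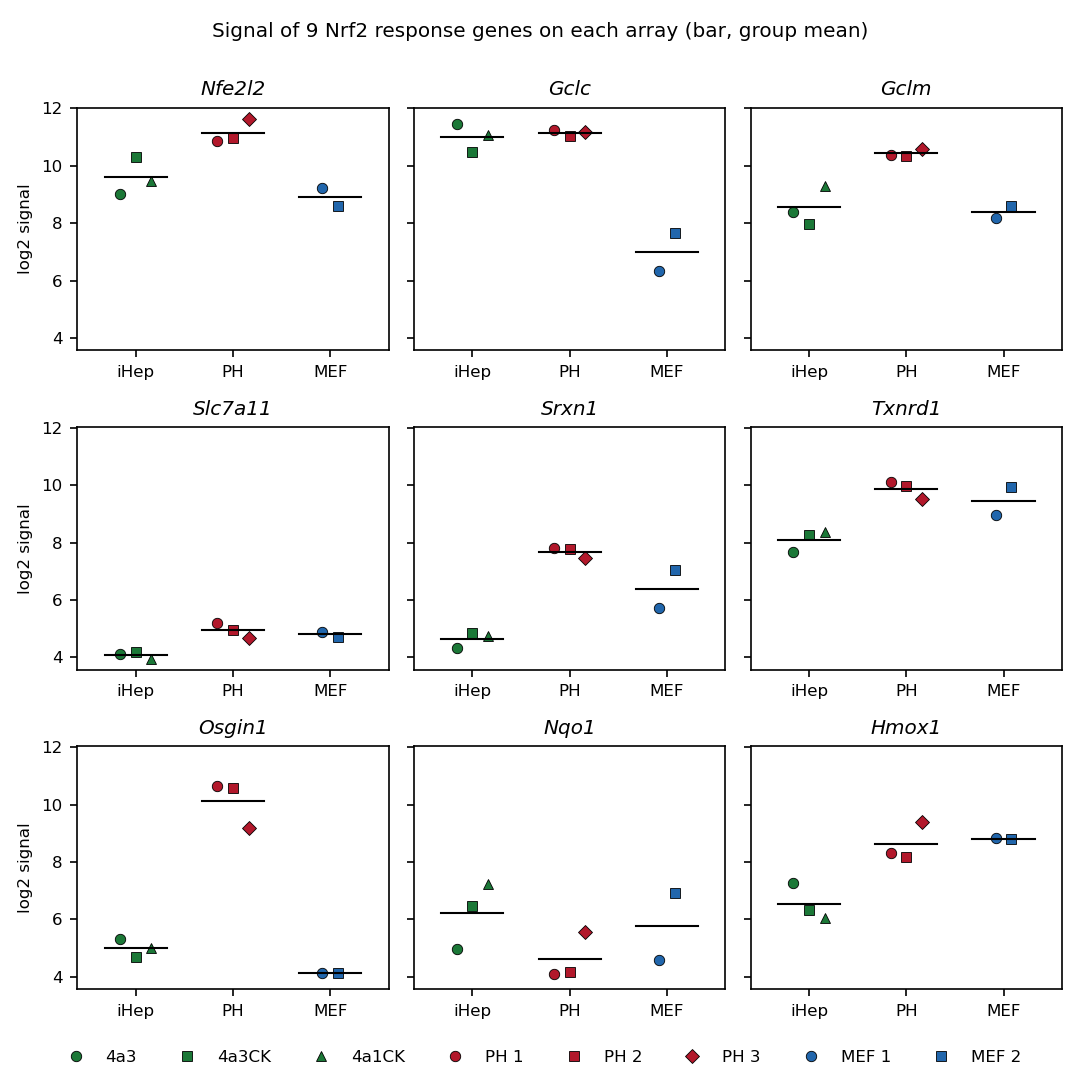
Log2 signal of the 9 measured genes on each array (points) with group means (bars), 1 panel per gene, with iHep lines on the left, PH in the middle and MEF on the right. Gclc is at 10.47 or above on every iHep and PH array and at 7.65 or below in MEF, and Osgin1 is at 9.18 or above in PH and at 5.32 or below elsewhere.

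By the probe sets used for the 9 genes, cultured primary hepatocytes held the highest mean of Nfe2l2 and of most targets. By these sets the iHep arrays overlapped with PH only in Gclc and Nqo1 and lay below all PH arrays in the other 7 genes. In iHep against PH, 0 members rose and 6 fell (Osgin1, Srxn1, Hmox1, Gclm, Txnrd1 and Nfe2l2), where 1.49% of all genes rose and 5.64% fell. At an unadjusted p under 0.05 in limma the counts were 0 higher and 7 lower, where 5.66% of all genes were higher and 15% lower. The arrays did not overlap for 7 members, all lower in iHep, against 21.3% of all genes lower without overlap. Of these, Slc7a11 in PH 3 lay within the lines by percentile on its own array. On another probe set each of Nfe2l2, Slc7a11 and Srxn1 the iHep and PH arrays overlapped, while on the remaining Srxn1 sets they did not. The median member difference was -1.76, against -0.09 over all genes.

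In iHep against MEF, 1 member rose (Gclc) and 2 fell (Hmox1 and Srxn1), where 1.98% of all genes rose and 4.47% fell. At an unadjusted p under 0.05 in limma the counts were 1 higher and 4 lower, where 3568 of 17097 genes lay under that limit in either direction. The median member difference was 0.17, against 0.16 over all genes. By the probe sets used, the arrays did not overlap for 2 members higher and 4 lower in iHep, against 42.6% and 18.4% of all genes.

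In PH against MEF, 4 members rose (Osgin1, Gclc, Nfe2l2 and Gclm) and 0 fell, where 3.37% of all genes rose and 2.47% fell. Limma gave 5 higher and 0 lower at an unadjusted p under 0.05, where 10.7% of all genes were higher and 5.69% lower. The median member difference was 1.29, against 0.25 over all genes. By the probe sets used, the arrays did not overlap for 5 members, all higher in PH, against 30.1% of all genes higher without overlap. Of these, Srxn1 in PH 3 lay below MEF 2 by percentile on its own array (71.8 against 75.3). The other Srxn1 probe sets overlapped between PH and MEF. The 3 comparisons share arrays with each other and are not independent. Of the genes called in iHep against PH, 20.8% were higher in iHep, and this became 39.7% after quantile normalization and 36.3% with array medians subtracted, and of those called in PH against MEF, 57.7% were higher in PH, with 46.1% and 41.7% in these settings. The bulk signals do not tell fewer cells of a type from less RNA per cell.

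**Figure D2:**
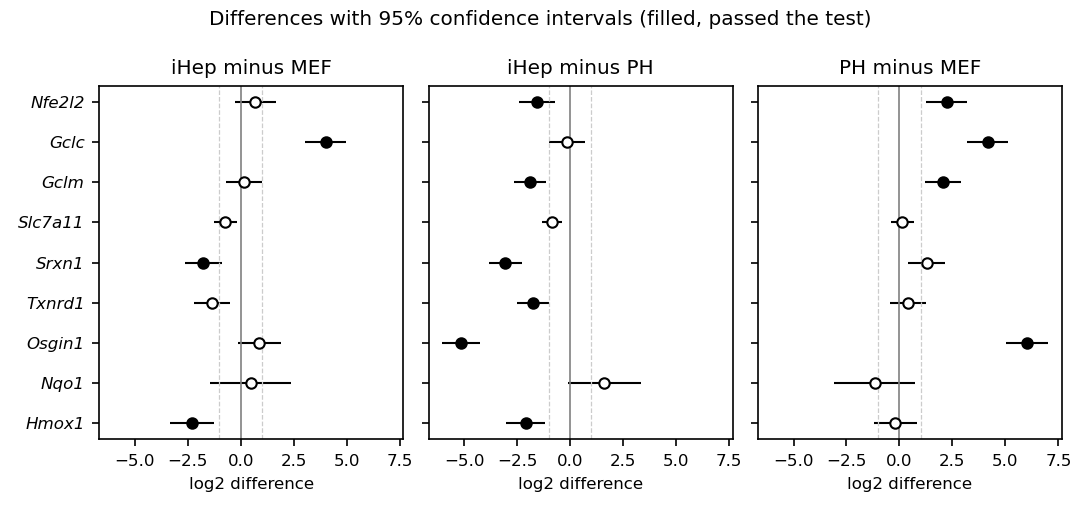
Log2 difference of each measured gene (points) with its 95% confidence interval (bars) in iHep minus MEF, iHep minus PH and PH minus MEF, filled where the test was passed, with dashed lines at a 2-fold difference. Osgin1 lies at -5.13 in iHep minus PH and at 6.02 in PH minus MEF, and Gclc at 4.01 and 4.16 against MEF.

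Nfe2l2 encodes Nrf2. Its signal was 9.00 in 4a3, 10.32 in 4a3CK and 9.48 in 4a1CK, against 10.85, 10.98 and 11.64 in PH 1, PH 2 and PH 3 and 9.22 and 8.61 in MEF 1 and MEF 2. All PH arrays lay above all others, and the iHep and MEF arrays overlapped. Nfe2l2 rose in PH against MEF by 2.24 ± 0.42 (SE, adjusted p = 0.0162, limma), a 4.72-fold difference, and fell by 1.56 ± 0.38 in iHep against PH (adjusted p = 0.0425, limma). The iHep difference from MEF of 0.68 had an adjusted p of 0.409 in limma.

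Both Nfe2l2 calls were near the threshold. The fall in iHep against PH was kept in 6 of 19 alternative settings, and it was lost when any array but 4a3CK was left out. Those differences lay between -1.26 (without 4a3, adjusted p = 0.148, limma) and -1.71 (without PH 1, 0.0856), and the value without 4a3CK was -1.92 (0.013). The rise in PH against MEF was kept in 15 of 22 settings and was lost without PH 3 (2.00, adjusted p = 0.0607, limma), without MEF 1 (2.54, 0.0526) and without MEF 2 (1.94, 0.133), and within the first submission set (3.03, 0.0569). A second and dimmer Nfe2l2 probe set gave 0.36 for iHep minus PH, opposite in sign, 2.35 for iHep minus MEF and 1.99 for PH minus MEF. The mean of both probe sets gave -0.60 for iHep minus PH (adjusted p = 0.608, limma).

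The regulator list held 16 genes that restrain, partner or resemble Nrf2, of which 14 were measured. Keap1, which captures Nrf2, and Sqstm1, the adaptor that binds Keap1, had no probe set of their own. In iHep against MEF 1 regulator rose and 2 fell, in iHep against PH 0 rose and 2 fell, and in PH against MEF 1 rose and 0 fell. At an unadjusted p under 0.05 in limma these counts were 2 and 3, 0 and 5, and 3 and 0. Without MEF 1, the counts of passed tests against MEF were 0 and 0 for both iHep and PH.

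Cul3, the ligase scaffold, Bach1, a repressor at the same elements, and Mafg, a small Maf partner, passed no test in any comparison. Their differences lay between -0.90 (Bach1, iHep minus PH) and 0.75 (Bach1, PH minus MEF). Maff, another small Maf, rose in iHep against MEF by 1.97 ± 0.36 (adjusted p = 0.0159, limma), a call lost without MEF 1 (adjusted p = 0.131), and rose in PH against MEF by 1.54, a call kept in 1 of 7 further settings run for the named genes. Dpp3, which competes with Nrf2 for Keap1, fell by 1.29 ± 0.21 in iHep against PH (adjusted p = 0.0092, limma) in all 7 of these settings. Nfe2l1, the sister factor of Nrf2, fell by 1.43 in iHep against MEF and fell by 1.24 in iHep against PH, with calls kept in 3 of 7 settings each. Trim21, a ubiquitin ligase that acts on Sqstm1, fell by 1.73 in iHep against MEF with its call kept in 4 of 7 settings.

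Glutathione is made by glutamate-cysteine ligase, a dimer of the catalytic subunit Gclc and the modifier subunit Gclm, from cysteine that the transporter Slc7a11 helps to import as cystine. Gclc read 11.47 in 4a3, 10.47 in 4a3CK and 11.06 in 4a1CK, against 11.25, 11.03 and 11.18 in PH and 6.34 and 7.65 in MEF. The iHep and PH arrays lay far above the MEF and overlapped with each other. Gclc rose in iHep against MEF by 4.01 ± 0.42 (adjusted p = 0.00106, limma), 16.1-fold, and in PH against MEF by 4.16 ± 0.42 (adjusted p = 0.00059, limma), 17.9-fold. The iHep minus PH difference was -0.15, with a 95% interval of -1.0 to 0.70, so a 2-fold lower level in iHep lies at the edge of what these arrays allow.

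The Gclc rise in PH against MEF was called in all 22 alternative settings, at 3.54 within the first submission set and 4.79 within the second. In iHep against MEF it was called in 18 of 19, the exception being the arrays of the first submission set alone (3.35, adjusted p = 0.0703, limma), where MEF 2 is the only MEF array.

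Gclm, the subunit that raises the efficiency of the catalytic one, was highest in PH, though at percentile 84.4 of all genes or above on every array. It read 8.37, 7.99 and 9.29 in 4a3, 4a3CK and 4a1CK, against 10.36, 10.34 and 10.59 in PH and 8.17 and 8.59 in MEF. The PH arrays stood alone, while the iHep and MEF arrays overlapped. Gclm fell by 1.88 ± 0.33 in iHep against PH (adjusted p = 0.0122, limma) and rose in PH against MEF by 2.05 ± 0.37 (adjusted p = 0.0131, limma). For iHep minus MEF the difference was 0.17 (adjusted p = 0.822, limma). The fall in iHep against PH was lost without 4a3 (-1.79, adjusted p = 0.0523, limma) and within the first submission set (-2.05, 0.0828). The rise in PH against MEF was lost without PH 3 (1.97, adjusted p = 0.0547, limma), without MEF 1 (1.84, 0.118) and without MEF 2 (2.26, 0.0523), and within the first submission set (2.01, 0.121).

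Slc7a11, the cystine carrier, was dim on every array. It read 4.11, 4.17 and 3.95 in 4a3, 4a3CK and 4a1CK, against 5.19, 4.96 and 4.67 in PH and 4.89 and 4.71 in MEF. By percentile of all genes on its own array, PH 3 at 27.4 lay within the lines at 24.0 to 30.9. As deposited, the lines lay below both other groups without overlap, but by less than 2-fold. The iHep minus PH difference of -0.86 (adjusted p = 0.0429, limma) therefore fell short of the size required, and that of iHep minus MEF was -0.72 (adjusted p = 0.121). A second probe set gave -0.98 for iHep minus PH and 0.32 for iHep minus MEF, with 5.44 in 4a3CK against 3.52 and 3.30 in 4a3 and 4a1CK.

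Of 19 measured glutathione genes other than the members, 2 rose and 2 fell in iHep against MEF, 2 rose and 5 fell in iHep against PH, and 4 rose and 2 fell in PH against MEF. The last counts became 0 and 1 without MEF 1 and 2 and 1 without MEF 2. Gsr, which regenerates reduced glutathione, read 7.13, 7.95 and 6.83 in 4a3, 4a3CK and 4a1CK, against 9.71, 9.61 and 9.59 in PH. It fell by 2.33 ± 0.37 in iHep against PH (adjusted p = 0.00799, limma), a call kept in all 7 settings, and rose in PH against MEF by 2.59 ± 0.42 (adjusted p = 0.0077), a call lost without MEF 1 (2.00, 0.0617). Gss, the second enzyme of glutathione synthesis, rose in PH against MEF by 1.80 ± 0.33 (adjusted p = 0.0143, limma), a call kept in 3 of 7 settings and lost without MEF 1 (1.26, 0.108).

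Mgst2, a microsomal glutathione transferase, read 9.44, 8.90 and 9.68 in the lines, against 5.44, 5.87 and 6.38 in PH and 5.54 and 5.25 in MEF, and was higher in all 3 lines than on any other array. It rose in iHep by 3.44 ± 0.30 against PH (adjusted p = 0.000453, limma) and by 3.95 ± 0.34 against MEF (adjusted p = 0.000433), in all 7 settings. Gpx7, a peroxidase of the endoplasmic reticulum, fell by 2.35 in iHep against PH and fell by 4.31 in iHep against MEF, with both calls kept in all 7 settings. Gpx8, another peroxidase of that compartment, fell by 3.59 in PH against MEF in all 7 settings. It fell by 2.09 in iHep against MEF, a call kept in 5 of 7, and its call of 1.50 higher in iHep than in PH was kept in 3 of 7. Gsta4, which conjugates hydroxynonenal, was 3.72 higher in iHep than in MEF, a call kept in 2 of 7 settings, and MEF 1 and MEF 2 themselves read 5.48 and 8.43.

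Srxn1 (sulfiredoxin, which repairs overoxidized peroxiredoxins) and Txnrd1 (the cytosolic thioredoxin reductase) were both lower in the lines than in PH. Srxn1 read 4.32, 4.84 and 4.74 in 4a3, 4a3CK and 4a1CK, against 7.82, 7.76 and 7.46 in PH and 5.73 and 7.05 in MEF. As deposited and by the probe set used, the lines were lowest, PH highest and MEF between, with no overlap between any pair of groups. By percentile of all genes on its own array, PH 3 at 71.8 lay below MEF 2 at 75.3, though above MEF 1 at 60.0. Srxn1 fell by 3.05 ± 0.34 in iHep against PH (adjusted p = 0.00153, limma) and fell by 1.76 ± 0.38 in iHep against MEF (adjusted p = 0.0308). PH minus MEF was 1.29 (adjusted p = 0.102, limma). The difference was 1.95 without MEF 2 and 2.06 within the second submission set. In both settings MEF 1 is the only MEF array, so no spread between MEF arrays enters.

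The size of the Srxn1 difference rests on 1 of its 4 probe sets. The other 3 gave -0.36, -0.81 and -0.92 for iHep minus PH and -0.24 to -0.57 for iHep minus MEF, and the mean of all 4 gave -1.29 (adjusted p = 0.0201, limma) and -0.75 (0.206). The one used carries the suffix for probes that can bind several transcripts, and without such probe sets the iHep minus PH difference was -0.92 (adjusted p = 0.146, limma), the only alternative of 19 that ended that call. The fall in iHep against MEF was called in 8 of 19 settings and was lost without 4a3 (adjusted p = 0.103, limma), 4a1CK (0.0625), PH 1 (0.0562), PH 2 (0.057) or MEF 2 (-1.10, 0.185). Without MEF 2 the difference was thus over 1.5 times smaller.

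Txnrd1 read 7.65, 8.28 and 8.38 in 4a3, 4a3CK and 4a1CK, against 10.10, 9.96 and 9.53 in PH and 8.96 and 9.95 in MEF. The lines lay below both other groups, and PH and MEF overlapped. Txnrd1 fell by 1.76 ± 0.33 in iHep against PH (adjusted p = 0.0148, limma). Its iHep minus MEF difference of -1.35 had an adjusted p of 0.0668 in limma, and of 0.0377 without PH 3. The fall against PH was lost without 4a3 (-1.53, adjusted p = 0.062, limma), PH 1 (-1.64, 0.0658) or PH 2 (-1.71, 0.0622), with PH 1 and PH 2 averaged (-1.67, 0.0633), with array medians subtracted (-1.68, 0.0513) and within the first submission set (-1.43, 0.0636). PH minus MEF was 0.41 (adjusted p = 0.636, limma), and 1.07 within the second submission set, where MEF 1 is the only MEF array.

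**Figure D3:**
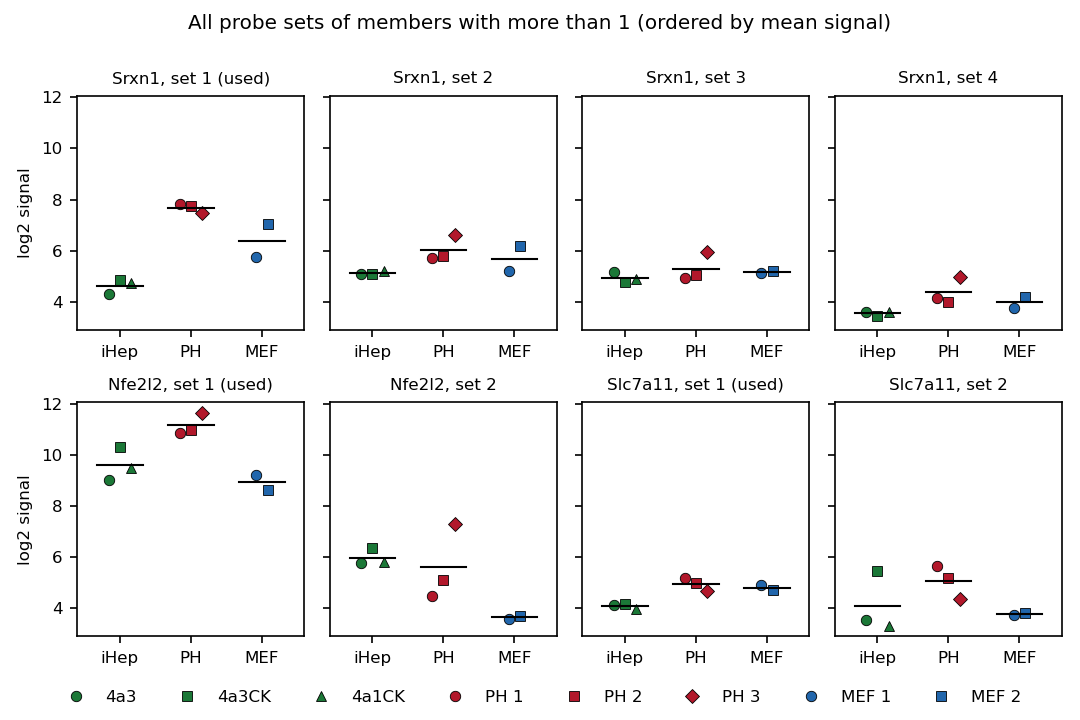
Log2 signal on each array (points) with group means (bars) for every probe set of Nfe2l2, Slc7a11 and Srxn1, the members with more than 1 probe set, in order of mean signal, with the probe set used marked in the panel title. The Srxn1 probe set used spans 4.32 to 7.82 over the arrays, while its other 3 probe sets differ by -0.36 to -0.92 between iHep and PH.

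Among 11 measured genes of the thioredoxin and peroxiredoxin system besides these members, 0 rose and 0 fell in iHep against MEF and in PH against MEF, and 0 rose and 1 fell in iHep against PH. At an unadjusted p under 0.05 limma gave 3 higher and 2 lower, 5 higher and 0 lower, and 0 higher and 5 lower in these comparisons. The gene that fell was Msrb1, a selenoprotein that reduces oxidized methionine, by 1.53 ± 0.31 (adjusted p = 0.0201, limma), with the call kept in 5 of 7 settings.

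Osgin1, an oxidative stress induced growth inhibitor, differed most among the members. It read 5.32, 4.70 and 5.01 in 4a3, 4a3CK and 4a1CK, against 10.66, 10.59 and 9.18 in PH and 4.12 and 4.13 in MEF. All PH arrays stood more than 3 log2 units above every other array, and the lines lay slightly above the MEF without overlap. Osgin1 fell by 5.13 ± 0.39 in iHep against PH (adjusted p = 0.000193, limma) and rose in PH against MEF by 6.02 ± 0.44 (adjusted p = 0.000129). Both MEF values lay below the medians of their arrays over all probe sets, so the size of the difference from MEF may be a lower bound and no fold is given. These calls held in all 19 and all 22 alternative settings, with 5.06 for PH minus MEF within the first submission set and 6.50 within the second. The iHep minus MEF difference was 0.89 (adjusted p = 0.298, limma).

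Hmox1, which opens the heme ring and releases iron, carbon monoxide and biliverdin, was lowest in the lines. It read 7.25, 6.31 and 6.05 in 4a3, 4a3CK and 4a1CK, against 8.31, 8.18 and 9.40 in PH and 8.82 and 8.81 in MEF. The lines lay below all PH and MEF arrays, which overlapped with each other. Hmox1 fell by 2.09 ± 0.41 in iHep against PH (adjusted p = 0.0177, limma), 4.27-fold, and fell by 2.28 ± 0.45 in iHep against MEF (adjusted p = 0.0218), 4.86-fold. Against PH the call was lost without 4a1CK (-1.85, adjusted p = 0.0532, limma). Against MEF it was lost without 4a1CK (-2.04, adjusted p = 0.0548, limma), without MEF 1 (-2.27, 0.125), without MEF 2 (-2.29, 0.118) and within the first submission set (-2.27, 0.125).

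Macrophages, which express Hmox1 strongly, could be present in the primary cultures. The mean of 10 macrophage markers was 4.24 to 4.35 in the lines, against 4.64 to 5.08 in PH and 5.12 and 5.72 in MEF 1 and MEF 2. Of the 10, 0 rose and 2 fell in iHep against MEF (5 lower at an unadjusted p under 0.05 in limma), 0 rose and 1 fell in iHep against PH (3 lower), and 1 rose and 2 fell in PH against MEF. Lyz2 read 3.46 to 3.57 in the lines, against 4.26 to 4.97 in PH and 8.54 and 9.28 in MEF, whereas Csf1r read 4.25 to 4.63 on all arrays. Cd14 read 5.93 to 9.06 in the lines, against 9.10 to 10.29 in PH and 6.36 and 5.88 in MEF, and was the marker that rose in PH against MEF (3.59, adjusted p = 0.0343, limma). Clec4f read 4.27 to 4.44 in the lines and 3.93 and 3.74 in MEF. In PH 1, PH 2 and PH 3 it read 3.69, 3.78 and 4.98. The part of macrophages in the Hmox1 difference was not tested.

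In the list of 10 other genes of heme and iron handling, 0 rose and 0 fell in iHep against MEF (1 higher and 0 lower at an unadjusted p under 0.05 in limma), 0 rose and 2 fell in iHep against PH, and 2 rose and 0 fell in PH against MEF. The same genes made both counts. Blvrb, a biliverdin reductase, fell by 1.30 in iHep against PH and rose in PH against MEF by 1.63, and Fech, which inserts iron into heme, fell by 1.13 and rose by 1.11. For Blvrb the calls were kept in 3 and 2 of 7 settings and for Fech in 5 and 2. Neither was called in PH against MEF without MEF 1.

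Nqo1, a quinone reductase and the usual reporter of Nrf2 activity, passed no test. It read 4.98, 6.47 and 7.23 in 4a3, 4a3CK and 4a1CK, against 4.08, 4.15 and 5.57 in PH and 4.60 and 6.92 in MEF 1 and MEF 2. Every group spread widely, with SDs of 1.15 in iHep, 0.839 in PH and 1.64 in MEF (n = 3, 3 and 2), and all groups overlapped. Differences were 1.62 for iHep minus PH (adjusted p = 0.268, limma), 0.47 for iHep minus MEF (0.785) and -1.16 for PH minus MEF (0.595). Without MEF 1 or MEF 2 the iHep minus MEF difference became -0.70 or 1.63, so its sign depends on the MEF array used.

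Other enzymes and exporters of detoxification, 15 measured genes, gave 4 that rose and 0 that fell in iHep against MEF, 0 and 5 in iHep against PH, and 5 and 0 in PH against MEF. In iHep against PH limma gave 2 higher and 6 lower at an unadjusted p under 0.05. Against MEF it gave 5 higher and 2 lower in iHep, and 9 higher and 2 lower in PH. The 4 rises in iHep against MEF became 1 without MEF 1 and 1 without MEF 2. The exporters of the Abcc family carry glutathione and glucuronide conjugates out of the cell. Abcc2, the canalicular exporter, read 3.25, 3.21 and 3.17 in the lines, against 8.28, 8.15 and 7.38 in PH and 4.28 and 4.39 in MEF. It fell by 4.72 ± 0.26 in iHep against PH (adjusted p = 5.14e-05, limma) and rose in PH against MEF by 3.60 ± 0.29 (adjusted p = 0.000198), while iHep minus MEF was -1.13 and did not pass (adjusted p = 0.0582, limma). Abcc3, a basolateral exporter, was intermediate in the lines at 6.23 to 6.49, against 8.65 to 9.34 in PH and 4.81 and 4.98 in MEF.

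Abcc4, another basolateral exporter, rose in PH against MEF by 4.62 in all 7 settings, and its rise of 2.99 in iHep against MEF was kept in 3 of 7. Its iHep minus PH difference of -1.63 did not pass (adjusted p = 0.122, limma). Abcc1, the other exporter of the family in the list, passed no test, at 7.59 to 8.94 in the lines, 7.37 to 7.93 in PH and 9.41 and 9.03 in MEF 1 and MEF 2. Aox1, an aldehyde oxidase, fell by 2.43 in iHep against PH and rose in PH against MEF by 2.80, and Cbr1, a carbonyl reductase, fell by 2.30 in iHep against PH, all in 7 of 7 settings. Ces2g, a carboxylesterase, rose in iHep against MEF by 2.95 and lost its call only without MEF 1 among these settings (adjusted p = 0.0659, limma).

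G6pdx, which feeds the pentose phosphate pathway and its NADPH, could not be read. The probe sets named for G6pd2, a retrogene copy, stayed between 3.15 and 4.05 on all arrays and do not stand for it. Of 11 measured genes of NADPH supply, 1 rose and 1 fell in iHep against MEF, 0 rose and 2 fell in iHep against PH, and 0 rose and 0 fell in PH against MEF. Without either MEF array the counts in iHep against MEF were 0 and 0. At an unadjusted p under 0.05 limma gave 0 higher and 4 lower in iHep against PH, and 2 higher and 0 lower in PH against MEF. Nadk, which makes NADP from NAD, fell by 1.37 ± 0.23 in iHep against PH (adjusted p = 0.0101, limma) in all 7 settings and fell by 1.37 in iHep against MEF, kept in 5 of 7. Me1, the cytosolic malic enzyme and a known Nrf2 target, fell by 2.38 ± 0.51 in iHep against PH (adjusted p = 0.0261, limma), kept in 4 of 7, and read 7.19, 8.19 and 5.95 in 4a3, 4a3CK and 4a1CK. Tkt, a transketolase, rose in iHep against MEF by 1.26, kept in 4 of 7.

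The list of superoxide and metal defence, 7 measured genes, gave 2 that rose and 0 that fell in iHep against MEF, 0 and 1 in iHep against PH, and 2 and 0 in PH against MEF. At an unadjusted p under 0.05 limma gave 4 and 1, 1 and 2, and 4 and 0. Selenop, the plasma selenium carrier made by the liver, read 12.33, 11.64 and 12.37 in the lines, against 11.95, 11.83 and 12.44 in PH and 8.57 and 7.66 in MEF. It had the same layout as Gclc, with the iHep and PH arrays high, and rose by 4.00 ± 0.36 in iHep (adjusted p = 0.000557, limma) and by 3.96 ± 0.36 in PH (adjusted p = 0.000393) against MEF. Cat (catalase) fell by 1.78 ± 0.23 in iHep against PH (adjusted p = 0.00304, limma) and rose in PH against MEF by 2.74 ± 0.26 (adjusted p = 0.000446). Mt1, a metallothionein, rose in iHep against MEF by 1.75, kept in 4 of 7 settings.

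Amino acid stress, driven by Atf4, also induces Slc7a11, and 12 genes of it were measured. Of these 2 rose and 1 fell in iHep against MEF, 1 rose and 1 fell in iHep against PH, and 0 rose and 0 fell in PH against MEF (1 higher and 0 lower at an unadjusted p under 0.05 in limma). Vldlr, a lipoprotein receptor, rose in iHep against PH by 2.68 ± 0.41 (adjusted p = 0.00682, limma) in all 7 settings and against MEF by 2.51, a call lost without MEF 2 (adjusted p = 0.108). Atf3, an early stress factor, rose in iHep against MEF by 2.81 and lost its call without MEF 1 (adjusted p = 0.141, limma). Without MEF 1 the counts in iHep against MEF were 1 and 0, as they were without MEF 2. Phgdh, of serine synthesis, fell by 1.11 in iHep against MEF, kept in 4 of 7, and Trib3, a target of Atf4, fell by 1.39 in iHep against PH, kept in 3 of 7.

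**Figure D4:**
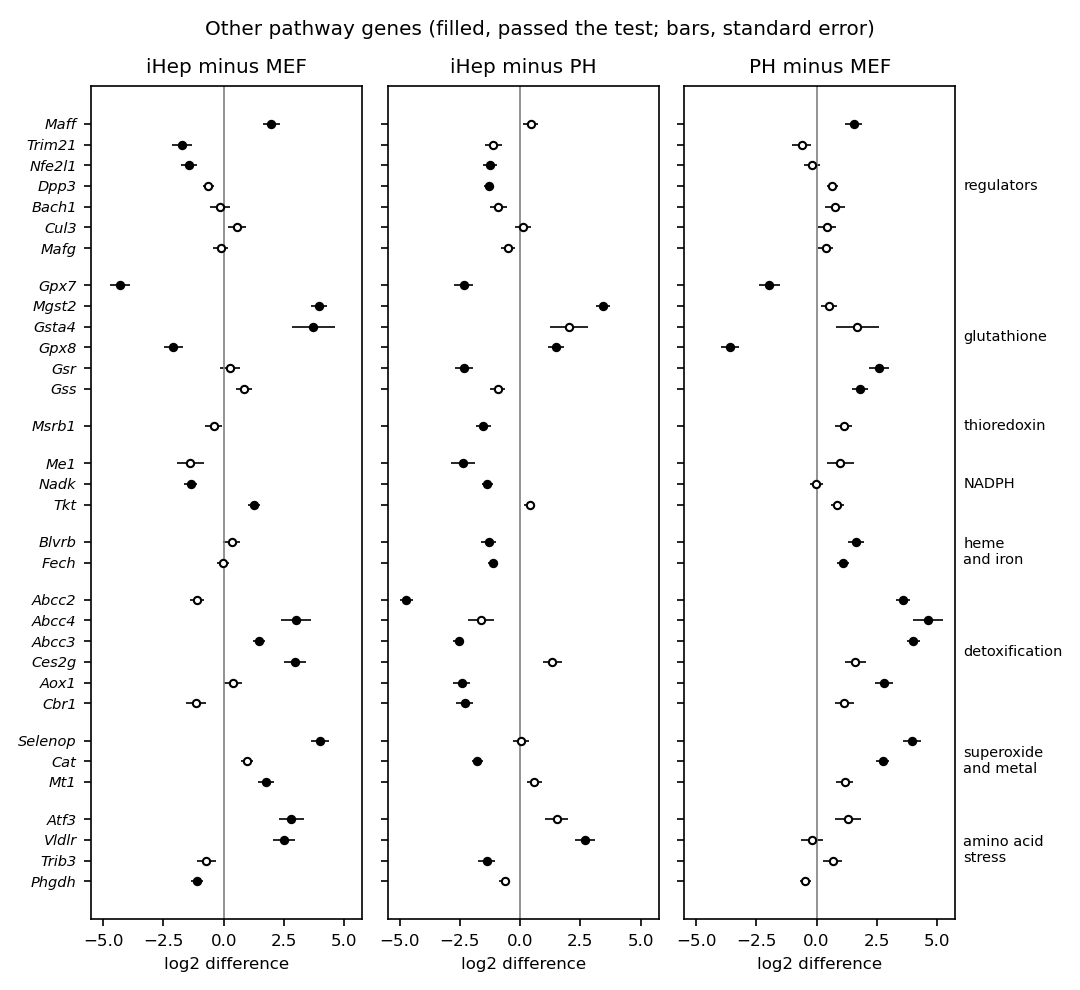
Log2 differences (points) with standard errors (bars) of the named genes of the 8 other lists in the 3 comparisons, filled where the test was passed. Abcc2 lies at -4.72 in iHep minus PH, Mgst2 at 3.44 in iHep minus PH and 3.95 in iHep minus MEF, and Selenop near 4 in iHep minus MEF and in PH minus MEF.

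Among the lines, which have 1 array each and so no test, the members were alike within 4-fold with 1 exception by the probe sets used. Nqo1 was 2.25 higher in 4a1CK than in 4a3, where 1.32% of all genes differed by 2 or more, and 1.50 higher in 4a3CK than in 4a3. Between 4a3CK and 4a3, and between 4a1CK and 4a3CK, 0 of 9 members differed by 2 or more, where 2.23% and 3.16% of all genes did. Nfe2l2 was 1.32 higher in 4a3CK than in 4a3, and Gclm was 1.30 higher in 4a1CK than in 4a3CK. Hmox1 was lower in both lines with c-Myc and Klf4 than in 4a3, with differences of -0.94 in 4a3CK and -1.20 in 4a1CK. By the probe sets used, Osgin1 and Slc7a11 stayed within 0.62 between any pair of lines, but the second Slc7a11 probe set, given above, put 4a3CK well above the other lines.

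Likeness of patterns was measured as the root mean square difference between log2 profiles over the 8 arrays, each centred on its own mean, among 3379 genes with a range of at least 2. The members, the genes of the other pathway lists and genes with only clone names were left out of these. The nearest genes to Nfe2l2 were Sgk3 (0.243), Dram2 (0.251) and Zfp612 (0.265). For Gclc they were Frmd4b (0.557), Lcor (0.573) and F11r (0.579), and for Gclm they were Kifc3 (0.234), Gpd1l (0.247) and Mlxipl (0.283). All of these have the layout of their member, highest in PH for Nfe2l2 and Gclm and high in iHep and PH for Gclc. Osgin1 was nearest to Wfdc2 (0.501), Hhex (0.514) and Mst1 (0.515), which were likewise above 8 in PH and below 6 elsewhere. The nearest to Txnrd1 were Rcan1 (0.184), Slc25a24 (0.189) and Ddx54 (0.191), and to Srxn1 they were Serinc2 (0.359), Zfp971 (0.391) and Phc2 (0.408). Hmox1 was nearest to Shisa4 (0.285), Atxn1 (0.374) and Nfib (0.383), Nqo1 to Rps6ka6 (0.299), Pold2 (0.458) and Atp2b1 (0.523), and Slc7a11 to Stat5b (0.328), Ssh1 (0.334) and Mthfd2l (0.345). Slc7a11 itself had a range of 1.24, so genes as flat as it were not among the candidates. Among the members the closest pair was Txnrd1 and Slc7a11 (0.541) and the farthest Nqo1 and Osgin1 (3.57).

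**Figure D5:**
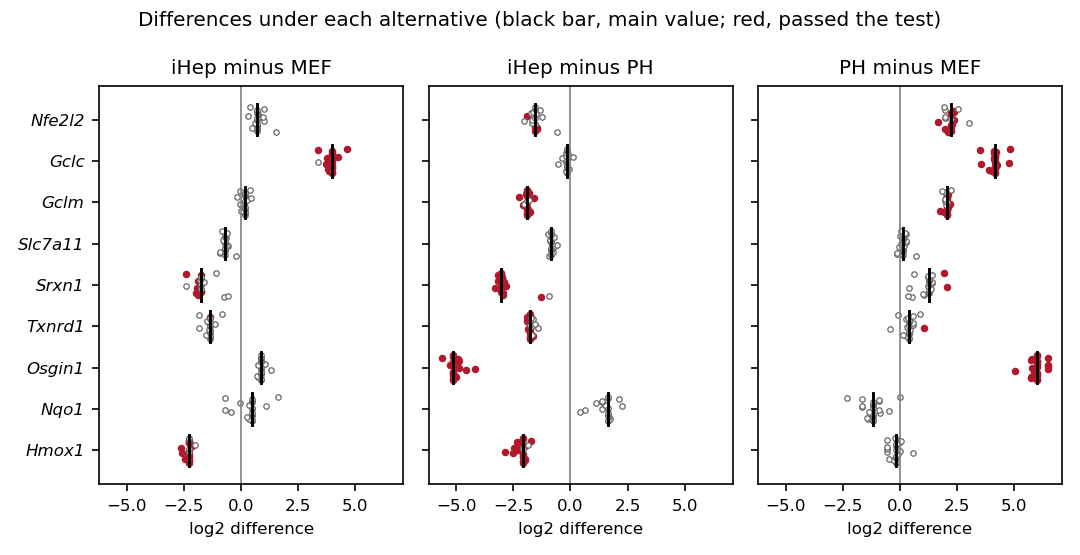
Log2 differences of the members (points) under each alternative setting, red where the test was passed, with the main value as a black bar. Osgin1 and Gclc keep their calls against MEF in PH in all 22 settings, while Nfe2l2 in iHep minus PH is called in 6 of 19.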

How the data were processed

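Total RNA was hybridized to Affymetrix mouse 3′ arrays with perfect-match probes, 1 array per sample. What the authors deposited is a log2 value for each probe set. Per the submitters' processing notes, which give no versions, RMA and Partek were used. The table holds 45141 probe sets, of which 28898 carry 1 gene symbol, 551 several and 15588 none, besides 104 controls. Names come from the platform annotation in GEO. The number of arrays, not sequencing depth, limits the precision.

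Deposited values were used unchanged. All 8 arrays entered a 3-group linear model in limma 3.58.1 (R 4.3.3), with moderated two-sided tests. It was also run on simulated data with independent noise, in which 200 genes were changed by 2 or 3 log2 units up or down. These data held no array-wide shift, no submission set effect and no near-duplicate arrays. It recovered 72.5%, 76.5% and 80.5% of them for iHep against MEF, iHep against PH and PH against MEF. False calls were 5, 10 and 5. The share recovered does not speak for smaller differences. Tables, sequences and plots used Python 3.11.15, pandas 2.3.3, numpy 2.4.6 and matplotlib 3.10.9. Intervals are 95% intervals of the model. All members were named. Up to 6 genes of each other list were named, those with the largest absolute difference among genes called in any comparison, and direct regulators of Nfe2l2 in any case. The members, lists and tests were chosen with earlier results of these data known. Alternatives were other probe set rules, scalings, filters, sample subsets, blocks and a stricter threshold. The 7 further settings for named genes, chosen after seeing the data, were both scalings, the submission set as a block, PH 1 and PH 2 averaged, and PH 3, MEF 1 or MEF 2 left out. Abcc1, Cd14 and Clec4f were named after their values were seen. Replicate numbers 1 and 2 are shared by PH and MEF titles, but the difference between MEF 1 and MEF 2 correlated with that between PH 1 and PH 2 at -0.197 across 17097 genes, so the numbers were not taken to pair arrays.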

Additional observations from a re-analysis of the deposited data

How the results depend on the processing

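No member difference that passed the test changed sign in the settings run. The second Nfe2l2 probe set by itself, which was not one of them, gave 0.36 for iHep minus PH, against -1.56 by the set used. Over members and settings, 153 of 171 results kept their side of the threshold for iHep against MEF, 145 of 171 for iHep against PH and 181 of 198 for PH against MEF. In 8, 1 and 9 of these the difference was not called and had the other sign, as for Nqo1 (-0.70 to 1.63) and Gclm (-0.20 to 0.45) in iHep minus MEF. The cause of the changes below was not tested, apart from the fewer arrays or the stricter threshold that some settings use by construction. Within the first submission set, 492 genes were called for iHep against MEF (1103 over all arrays), 2178 for iHep against PH (1219 over all arrays) and 3485 for PH against MEF (1000 over all arrays), with 0, 3 and 2 members. The 0 is limma's count. In the first set MEF and PH have 1 array each, so the spread comes from the iHep lines alone. In the second it comes from PH 1 and PH 2 alone, as MEF 1 is the only MEF array. Within the second set, 2263 genes were called for PH against MEF. With PH 1 and PH 2 averaged, 588 genes were called for iHep against PH. At an adjusted p under 0.01, 389, 476 and 522 genes and 1, 2 and 2 members were called for iHep against MEF, iHep against PH and PH against MEF. Leaving out 1 array at a time gave 471 (without MEF 1) to 1874 (without PH 3) genes and 1 to 4 members for iHep against MEF. It gave 576 (without PH 1) to 1806 genes and 3 (without 4a3) to 6 members for iHep against PH, and 575 (without MEF 1) to 1156 genes and 2 to 4 members for PH against MEF. With the replicate number as a block, 768 genes and 2 members were called for PH against MEF. With MEF 1 paired to PH 2 and MEF 2 to PH 1, a crossed pairing chosen after seeing the data, the counts were 779 and 2. Slc7a11 stood at percentiles 24.0 to 30.9 of all genes in the lines, 53.7, 50.3 and 27.4 in PH 1, PH 2 and PH 3, and 48.9 and 46.0 in MEF 1 and MEF 2, and the deposited values give no measure of signal over background to set a limit for it.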
